A study of Sus scrofa with 27 samples.

Results

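The genes described here encode 9 enzymes and a carrier protein that clear superoxide, hydrogen peroxide, lipid peroxides and quinones in the cell, namely SOD1, SOD2, CAT, GPX1, GPX4, PRDX1, PRDX2, PRDX3, TXN and NQO1. They were taken by gene symbol from the pig Ensembl identifiers of the count files. An identifier was matched for 9 of the 10, all 9 passed the count filter, and TXN was not analysed here. The samples were mural granulosa cells (GCs), the layer of follicle cells that surrounds the fluid-filled antrum, cut by laser capture microdissection from the largest healthy follicle of each sow. All sows were wild type and of the Large White times Norwegian Landrace cross. Over the last 2 weeks of lactation, 13 full-fed (FF) sows received 6.5 kg of feed per day and 14 restricted (RES) sows received 3.25 kg per day. From weaning until the ovaries were collected on day 2 post-weaning both groups received the same ration, which the labels call full feeding and for which the study's methods give a common allowance below the FF ration of lactation. As a model the groups have limits: the FF sows were those with the lowest and the RES sows those with the highest body weight loss of larger groups, and a single follicle stands for each sow. FF sow 9, which the labels leave out for low RNA integrity, was not analysed here.

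Antioxidant enzymes work in relays. Superoxide dismutases turn superoxide into hydrogen peroxide, which catalase splits in peroxisomes, glutathione peroxidases reduce with glutathione, and peroxiredoxins reduce with electrons from thioredoxin. NQO1 reduces quinones in a single step of 2 electrons, so that no radical forms, and it is a textbook target of NRF2, the transcription factor that drives many antioxidant genes. In GCs, mitochondrial activity and steroid synthesis are known sources of reactive oxygen species, and catalase, glutathione peroxidases and superoxide dismutases are known to be expressed in follicles of many mammals.

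Values below are normalized counts, that is deduplicated read counts divided by a library size factor, unless a scale is named. Total counts ranged from 12299220 to 16021200 in the FF libraries and from 12942198 to 18120922 in the RES libraries, so that even the lowest single value of a member other than GPX1 rested on 59 counts. The library of FF sow 10 stood apart: its 10 most abundant identifiers took 58.7% of its counts, against 37.2 to 51.0% in the other 12 FF libraries and 39.2 to 54.3% in the RES libraries. In the study's supplement the entry numbered FF 10 has the lowest RNA integrity, the lowest share of uniquely mapped reads and the highest share of multiply mapped reads of the series, whereas the entry numbered FF 9 is ordinary in all 3, so it is uncertain which of these entries belongs to the library of FF sow 10. The part of RNA quality in the values of this library was not tested. Of 12 granulosa marker genes, 11 were tested and FOXL2 could not be matched. INHA, FST and VCAN, which encode inhibin alpha, follistatin and versican, were detected in all 27 libraries. Of the 11 tested, edgeR called 1 higher in RES, HSD17B1 by 0.56 on the log2 scale (adjusted p = 0.027). It called 1 lower, GJA1 by 0.58 (adjusted p = 0.034), and 9 were not called. Markers of other cells were also present and were lower in RES where they passed the test: 3 of 7 tested endothelial genes fell, as did 2 of 4 erythroid, 2 of 7 smooth muscle and pericyte and 1 of 7 theca genes. Among the 7 stroma, 5 immune and 2 oocyte genes tested 0 were called. Over all tested genes 5.85% were called lower in RES. Fewer cells of a type and less RNA per cell cannot be told apart in bulk samples. The marker lists' part in the results below was not tested.

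To show the DNA at which these genes start, the windows from 250 bases before to 50 bases after the RefSeq gene start (Sscrofa11.1, the build of the files) were read for the 9 members. Those of SOD1 (chr13:195326323-195326622, plus strand) and PRDX1 (chr6:165847140-165847439, plus strand) are given because these genes passed the test between diets, and those of GPX4 (chr2:77323882-77324181, minus strand) and NQO1 (chr6:17292712-17293011, plus strand) because they hold a match to the antioxidant response element, the motif that NRF2 is known to bind. The sequences run 5′ to 3′ on the gene's own strand and capitals mark the match.
SOD1: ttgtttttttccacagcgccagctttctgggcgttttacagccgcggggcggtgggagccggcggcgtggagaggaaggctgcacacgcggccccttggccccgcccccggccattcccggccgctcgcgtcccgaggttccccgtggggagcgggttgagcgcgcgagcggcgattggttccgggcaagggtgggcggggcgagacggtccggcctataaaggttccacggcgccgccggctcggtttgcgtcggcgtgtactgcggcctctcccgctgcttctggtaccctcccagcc
PRDX1: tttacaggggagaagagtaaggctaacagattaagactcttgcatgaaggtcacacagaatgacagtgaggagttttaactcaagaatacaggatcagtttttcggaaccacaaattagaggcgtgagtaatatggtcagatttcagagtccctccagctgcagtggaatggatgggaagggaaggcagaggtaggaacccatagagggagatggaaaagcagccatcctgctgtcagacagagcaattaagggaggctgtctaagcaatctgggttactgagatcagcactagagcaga
GPX4: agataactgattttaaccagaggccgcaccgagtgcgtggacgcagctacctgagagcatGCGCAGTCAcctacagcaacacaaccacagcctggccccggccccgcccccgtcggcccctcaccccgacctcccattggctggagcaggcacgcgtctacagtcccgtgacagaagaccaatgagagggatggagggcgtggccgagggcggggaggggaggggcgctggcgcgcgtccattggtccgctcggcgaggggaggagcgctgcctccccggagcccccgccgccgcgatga
NQO1: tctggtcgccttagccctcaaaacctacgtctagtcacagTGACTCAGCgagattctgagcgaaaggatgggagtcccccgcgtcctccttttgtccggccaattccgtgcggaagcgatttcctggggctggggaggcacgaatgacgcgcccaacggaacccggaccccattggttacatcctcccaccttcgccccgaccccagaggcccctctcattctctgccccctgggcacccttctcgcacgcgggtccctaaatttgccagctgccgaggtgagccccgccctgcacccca
The core of the element was searched as TGACNNNGC on both strands, and its first letters can overlap the AP-1 motif TGACTCA. NQO1 held TGACTCAGC on the gene's strand from position -210 relative to the gene start, and in that match the AP-1 motif overlaps the element. GPX4 held GCGCAGTCA, a match on the opposite strand, from position -190. These were 2 of the 9 members, against 13.2% of the 10519 windows of tested genes that could be read. A TATAAA run lay at position -34 of SOD1, the only member with a match among the 9, against 7.81% of all windows. The CCAAT box, searched as CCAAT on both strands, was found in 5 of 9 members and in 36.2% of windows, and the GC box GGGCGG, also on both strands, in 7 of 9 members and in 62.9% of windows. The PRDX1 window was 46.3% G or C, whereas the other 8 members had 63.0 to 74.7% and the median window 62.0%. The windows sit at the outermost annotated start, and other starts were not examined.

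Per kilobase of exon, the peroxiredoxins were the most abundant members (ranks among 10622 genes with a RefSeq exon length). PRDX2, a cytosolic peroxiredoxin, had a mean of 2052 normalized counts per kilobase over the 27 libraries and ranked 165th by that level, PRDX3, the mitochondrial peroxiredoxin, had 1878 and ranked 177th, and PRDX1, a second cytosolic peroxiredoxin, had 1392 and ranked 249th. SOD1, the copper and zinc dismutase of the cytosol, had 558 and ranked 641st. CAT had 406 (rank 959), GPX4 370 (rank 1060), NQO1 270 (rank 1467) and GPX1 212 (rank 1876). SOD2, the manganese dismutase of mitochondria, was the least abundant member with 112 and ranked 3118th, within the top 29.4% of genes. These are the means of 27 sows across both diets. Neighbours in this order were compared within each library by the log2 ratio of their levels per kilobase. PRDX1 exceeded SOD1 in 27 of 27 libraries, by 1.30 ± 0.34 (mean and SD) over the FF libraries and by 1.33 ± 0.25 over the RES libraries, a step larger than the spread between libraries in both diets. PRDX3 exceeded PRDX1 by 0.77 ± 0.19 in FF, in 13 of 13 libraries, and by 0.18 ± 0.25 in RES, in 13 of 14, so that the step was larger than the spread in FF and smaller in RES. SOD1 exceeded CAT by 0.16 ± 0.40 in FF and 0.64 ± 0.26 in RES, and GPX4 exceeded NQO1 by 0.17 ± 0.56 and 0.67 ± 0.31, steps larger than the spread in RES and smaller in FF. CAT exceeded GPX4 by 0.36 ± 0.32 in FF and 0.01 ± 0.38 in RES, where it was the higher in 7 of 14 libraries. The differences of these steps between diets were not tested. PRDX2 and PRDX3 differed by 0.19 ± 0.22 in FF and 0.04 ± 0.35 in RES, and this step, NQO1 to GPX1 and GPX1 to SOD2 were smaller than their spread in both diets.

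**Figure D1:**
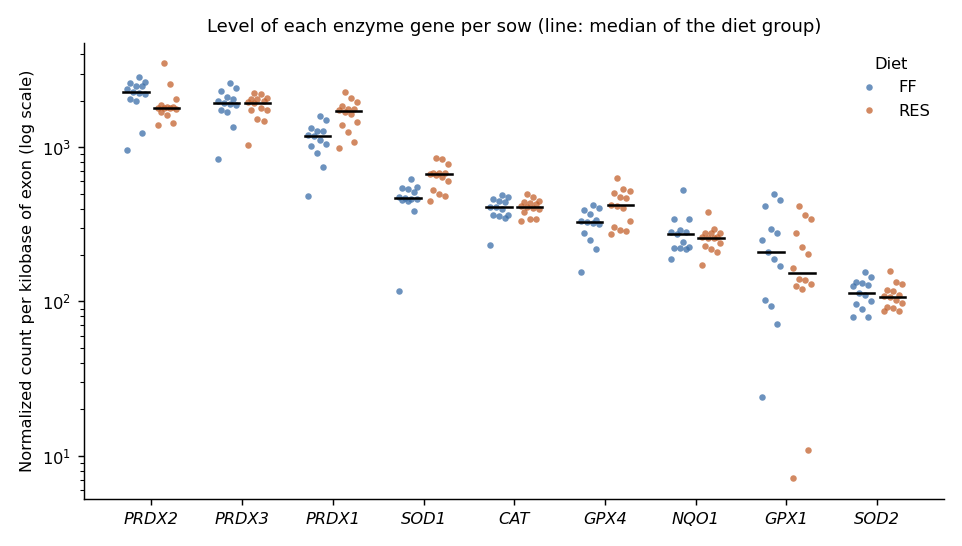
Normalized counts per kilobase of exon (log scale) of the 9 enzyme genes, 1 point per sow (13 FF, blue, and 14 RES, orange) with a black line at each group's median, ordered by the mean over all sows. The 3 peroxiredoxins sit highest and SOD2 lowest, and GPX1 spreads over the widest range, down to 7.15 in RES sow 3.

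SOD1 and PRDX1 were higher in RES GCs, GPX4 had a higher mean in RES but did not pass the test, and no member was called lower. SOD1 ranged from 74.7 in FF sow 10 through a median of 297 to 396 in FF, and from 283 through 423 to 539 in RES. The next lowest FF library, of sow 7, had 245. The groups overlapped, with 13 of 14 RES sows above the FF median and 9 above the highest FF sow. The means were 295 ± 76.4 (SD, n = 13) and 410 ± 79.9 (SD, n = 14), and the fitted log2 fold change of RES over FF was 0.43 (SE 0.14, 95% interval 0.14 to 0.72, adjusted p = 0.037), a 1.35-fold higher level. Leaving out FF sow 10 gave a smaller log2 fold change of 0.35 with a lower adjusted p of 0.00927. The call was lost in 10 of the 27 fits that left out 1 library each, those without FF sow 2, 7 or 8 or without RES sow 1, 6, 8, 9, 11, 12 or 13, with adjusted p up to 0.0652. The 3′ end of SOD1 shares 96 bases with SCAF4 on the opposite strand, and reads were counted without regard to strand.

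SOD2 did not pass the test. It ranged from 132 through a median of 189 to 259 in FF and from 145 through 179 to 264 in RES, and the groups covered nearly the same range. The log2 fold change was -0.11 (95% interval -0.31 to 0.10, adjusted p = 0.52). CCS, the chaperone that loads copper into SOD1, was at 23.8 ± 5.45 in FF and 24.8 ± 8.64 in RES (log2 fold change 0.01, adjusted p = 0.97), so SOD1 rose while its chaperone did not pass the test. The difference between these genes was not tested. PARK7, listed with the dismutases as an oxidative stress sensor, rose by 0.30 on the log2 scale (SE 0.09, adjusted p = 0.020) and lay above the FF median in 13 of 14 RES sows.

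**Figure D2:**
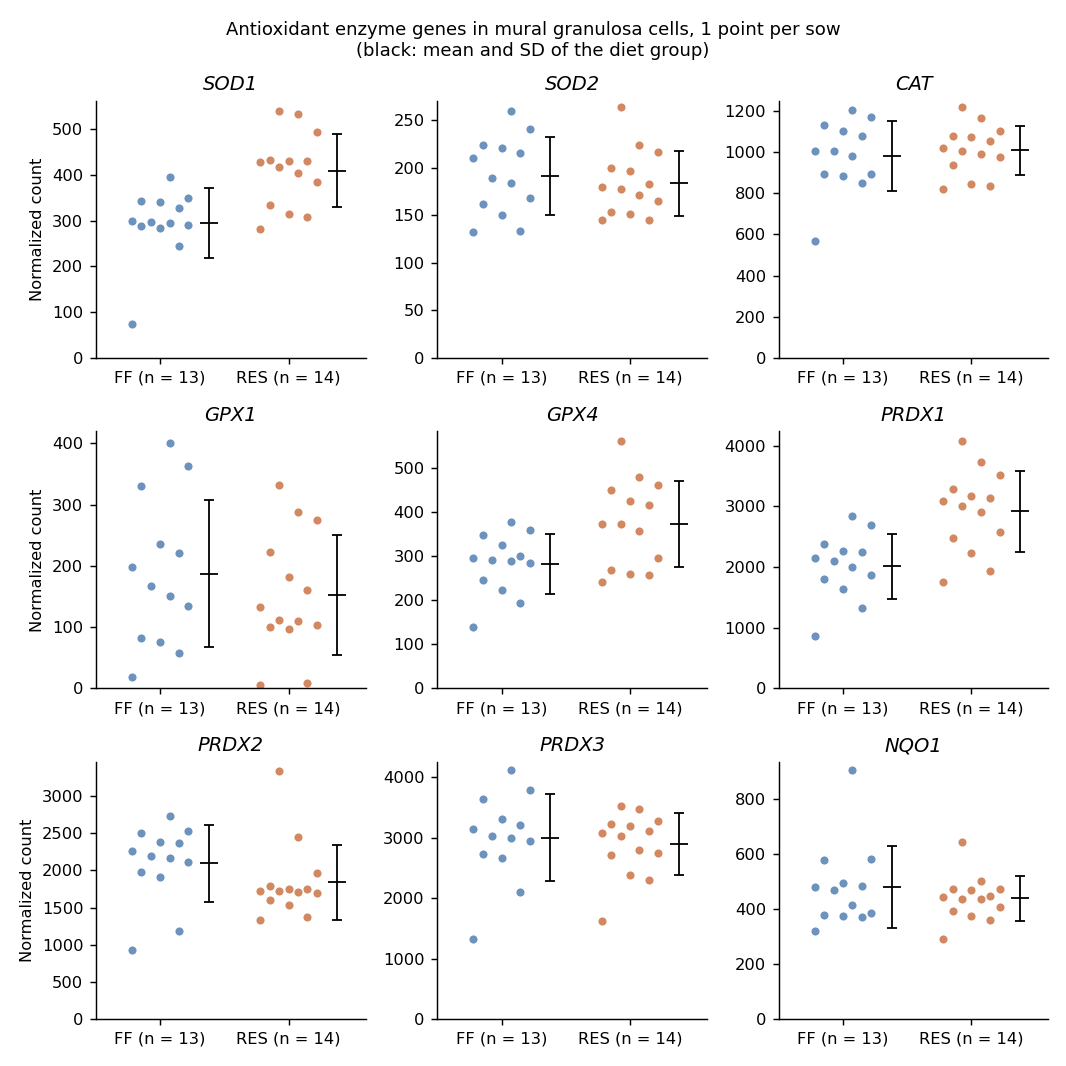
Normalized counts of each enzyme gene (vertical axes from 0), 1 point per sow, FF in blue (n = 13) and RES in orange (n = 14), with the mean and SD of each group in black. SOD1 and PRDX1 show 9 RES sows each above the highest FF sow, whereas SOD2, CAT and PRDX3 overlap almost fully, and FF sow 10 is the lowest FF point of SOD1, CAT, GPX4, PRDX1, PRDX2 and PRDX3.

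CAT, the catalase of peroxisomes, was the member with the tightest interval around no change. It ranged from 570 in FF sow 10 through 1005 to 1202 in FF and from 822 through 1012 to 1217 in RES, with 7 of 14 RES sows on each side of the FF median. Its log2 fold change was -0.003 (95% interval -0.17 to 0.17, adjusted p = 0.99), and its coefficient of variation was 17.2% in FF and 11.8% in RES. Of the 18 tested genes of the peroxisome list, which covers import factors and oxidases of the organelle that holds catalase, none was called by edgeR, with 4 at an unadjusted p under 0.05, while DESeq2 called 1 and limma voom 2, all lower in RES. A positive log2 fold change was found for 4 of the 18.

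The 2 glutathione peroxidases behaved differently from sow to sow. GPX4, which reduces lipid peroxides in membranes, ranged from 138 in FF sow 10 through 291 to 378 in FF and from 242 through 373 to 561 in RES. The ranges overlapped, with 10 of 14 RES sows above the FF median and 6 above the highest FF sow. Its log2 fold change was 0.36 (SE 0.13, 95% interval 0.08 to 0.63), and the adjusted p of 0.067 did not pass. It passed in 4 of the 27 fits without 1 library, those without FF sow 1 or RES sow 5, 7 or 14, with adjusted p down to 0.038. Without FF sow 10 the log2 fold change was 0.30 (adjusted p = 0.080). GPX1, the cytosolic glutathione peroxidase, was the most variable member by far, with a coefficient of variation of 64.2% in FF and 64.6% in RES against 11.8 to 31.4% for the other 8 members. It ranged from 19.2 through 167 to 400 in FF and from 5.71 through 122 to 332 in RES. The 3 lowest libraries, of FF sow 1 and RES sows 2 and 3, held 20, 8 and 7 raw counts, and in none of these libraries did another member have one of the 3 lowest values of its diet. CAT was in fact highest of its diet in FF sow 1 and in RES sow 2. The log2 fold change of GPX1 was -0.33 with an interval from -1.18 to 0.51 (adjusted p = 0.62), so a difference of the size seen for SOD1 could not be told from none. None of the 28 tested genes within 500 kb of GPX1 followed its pattern, with r of log2 levels from -0.27 to 0.33 over the 27 libraries after the diet means were subtracted.

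Both glutathione peroxidases carry selenocysteine. None of the 7 tested selenoprotein synthesis genes was called by edgeR (1 at an unadjusted p under 0.05), none by DESeq2 and 1 by limma voom. Of the 11 tested genes in the list of other selenoproteins SELENOW alone rose, by 0.65 (SE 0.14, adjusted p = 0.0033). That list leaves out the thioredoxin reductases, of which TXNRD1 rose (below). GPX7, a glutathione peroxidase of the endoplasmic reticulum without selenocysteine, rose by 0.50 (SE 0.10, adjusted p = 0.0026) and lay above the FF median in 14 of 14 RES sows.

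PRDX1 showed the largest log2 fold change of the 9 members. It ranged from 855 in FF sow 10 through 2092 to 2840 in FF and from 1752 through 3044 to 4074 in RES, with 12 of 14 RES sows above the FF median and 9 above the highest FF sow. The means were 2011 ± 537 and 2918 ± 664, the log2 fold change was 0.49 (SE 0.13, 95% interval 0.22 to 0.76, adjusted p = 0.014) and the level in RES was 1.41-fold that in FF. The call was kept in 27 of the 27 fits that left out 1 library each, with log2 fold changes from 0.43, without FF sow 10, to 0.54. PRDX2 pointed the other way without passing the test. It ranged from 923 in FF sow 10 through 2195 to 2740 in FF and from 1327 through 1728 to 3342 in RES. In RES, 12 of 14 sows lay below the FF median, and RES sow 3 was the highest library of all. The log2 fold change was -0.23 (SE 0.13, 95% interval -0.51 to 0.04, adjusted p = 0.23), and -0.30 without FF sow 10 (adjusted p = 0.072). PRDX2 shares 589 bases with RNASEH2A on the opposite strand. PRDX3 ranged from 1324 in FF sow 10 through 3022 to 4117 in FF and from 1627 through 3054 to 3520 in RES, and 7 of 14 RES sows lay on each side of the FF median (log2 fold change -0.10, 95% interval -0.34 to 0.15, adjusted p = 0.63).

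PRDX2 is also known as an abundant protein of red blood cells, so the erythroid markers are given beside it. Of 13 listed erythroid genes, 4 passed the count filter, all 4 had a negative log2 fold change and 2 fell, HBB (from 167 ± 257 to 47.2 ± 46.1, adjusted p = 0.017) and EPB42 (adjusted p = 0.0062). HBM and SLC4A1 were at 0 in 24 of 27 libraries each and AHSP in 20. Their part in the value of PRDX2 was not tested.

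Among the other peroxiredoxins, PRDX4 of the endoplasmic reticulum rose by 0.35 (SE 0.12, adjusted p = 0.044), a call kept in 10 of 27 fits without 1 library and lost without FF sow 10 (adjusted p = 0.057). PRDX5 and PRDX6 were at log2 fold changes of 0.28 and 0.29 with adjusted p of 0.17 and 0.11. Of the proteins that recharge peroxiredoxins, TXNRD1, the cytosolic thioredoxin reductase, rose by 0.40 (SE 0.11, adjusted p = 0.012) from 277 ± 53.7 to 378 ± 88.2 and kept its call in 27 of 27 such fits. TXNRD2, the mitochondrial reductase, was at -0.34 (adjusted p = 0.19), TXN2, the mitochondrial thioredoxin, at 0.05 (adjusted p = 0.76) and TXNIP, which binds and inhibits thioredoxin, at -0.22 (adjusted p = 0.57). SRXN1, which repairs overoxidized peroxiredoxins, was at -0.44 (adjusted p = 0.18) and low, at 27.3 ± 12.3 in FF and 20.7 ± 8.59 in RES. The sestrins SESN1 and SESN3, stress proteins linked to peroxiredoxin repair and to mTOR, fell by 0.55 and 0.43 (adjusted p = 0.026 and 0.038), calls kept in 25 and 16 of 27 such fits, and SESN2, at under 20 normalized counts on average, fell too.

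NQO1 did not pass the test. It ranged from 320 through 467 to 903 in FF and from 291 through 441 to 643 in RES. The highest value was that of FF sow 13, with the next FF sow at 583, and FF sow 10, the lowest FF library for 6 other members, was not low for NQO1. The log2 fold change was -0.18 (SE 0.12, 95% interval -0.43 to 0.07, adjusted p = 0.34). NFE2L2, which encodes NRF2, was at -0.30 (adjusted p = 0.14, and 0.039 without FF sow 10), and KEAP1, its inhibitor, at 0.06 (adjusted p = 0.65). BACH1, a repressor that competes with NRF2 for the same element, fell by 0.42 (SE 0.09, adjusted p = 0.0033) and lay below the FF median in every RES sow, since 0 of 14 lay above it. SQSTM1, an adaptor of selective autophagy that binds KEAP1, fell by 0.29 (adjusted p = 0.034), a call kept in 16 of 27 fits without 1 library.

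In all, 2 of the 9 members (22.2%) were called, both higher in RES, against 14.1% of the 11384 genes tested (8.29% called higher in RES, 5.85% lower). With 9 genes, this share is near that background. With sample quality weights in limma voom, 4 of 9 were called, GPX4 higher and PRDX2 lower in RES being added, against 27.9% of all genes. Log2 fold changes were positive for 3 of 9 members, and their median was -0.10, beside -0.02 over all tested genes. No member passed edgeR's interaction test between diet and read quality group. The lowest unadjusted p of the 9 was 0.041 for CAT, with an adjusted p of 0.40, and 1 of 9 was under 0.05. Within the higher quality libraries (7 FF, 7 RES) the log2 fold changes of SOD1, PRDX1 and GPX4 were 0.35, 0.42 and 0.45, with adjusted p of 0.067, 0.092 and 0.042, where 17.8% of all genes were called. Within the lower quality libraries (6 FF, 7 RES) they were 0.54, 0.57 and 0.26, with adjusted p of 0.39, 0.25 and 0.68, where 0.00878% of all genes were called. These values place FF sow 10 in the lower quality group by the supplement entry of its own number. By the entry numbered FF 9 it falls in the higher quality group, where the log2 fold changes of SOD1, PRDX1 and GPX4 were then 0.49, 0.53 and 0.54 (adjusted p = 0.17, 0.11 and 0.055), and in the lower quality group they were 0.34, 0.42 and 0.12 (adjusted p = 0.35, 0.25 and 0.88). The lowest unadjusted interaction p was then 0.14, for GPX4, and that of CAT was 0.34.

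**Figure D3:**
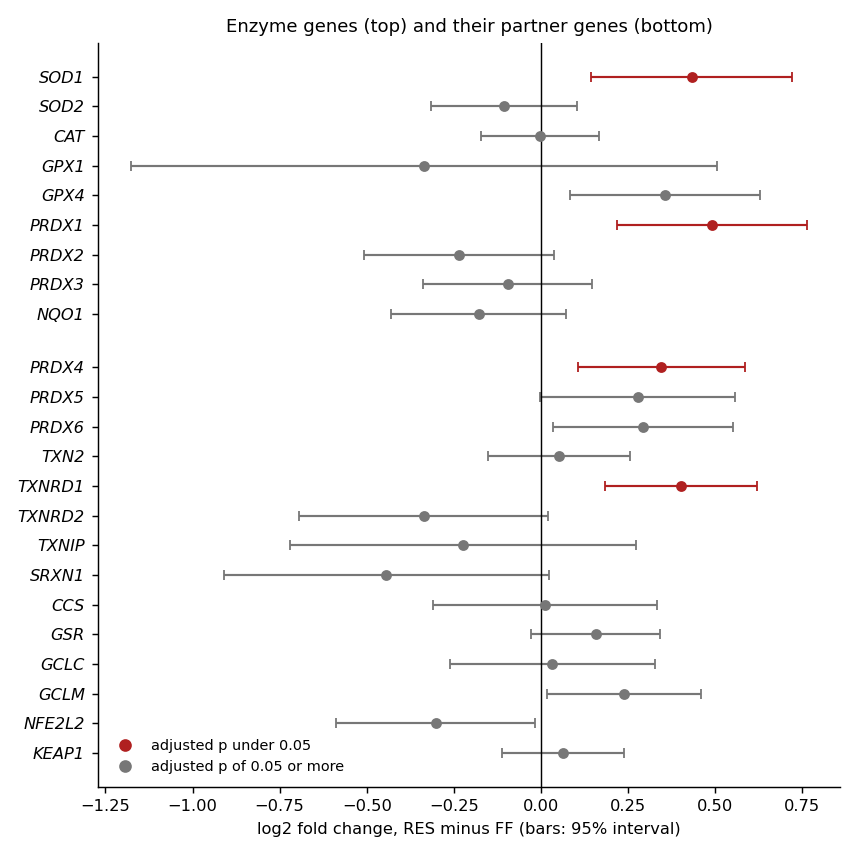
Log2 fold changes of RES over FF (points) with 95% intervals (bars) for the 9 enzyme genes above and 14 partner genes below, red where the adjusted p is under 0.05. SOD1, PRDX1, PRDX4 and TXNRD1 are called and lie right of 0, whereas CAT sits at 0 with a narrow interval and GPX1 has the widest.

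The rest of the antioxidant system was covered by 13 lists of 173 genes besides the members, of which 145 were tested. Of these, 17 rose, 7 fell and 121 were not called, 16.6% called against the 14.1% of all genes. Their median log2 fold change was 0.03. In glutathione metabolism edgeR called 2 of 19 genes, both higher in RES, whereas DESeq2 called 3, all higher, and limma voom 4, of which 1 was lower. The 2 were GPX7 above and GGCT, an enzyme of the gamma-glutamyl cycle that acts on gamma-glutamyl amino acids, at 1.08 (SE 0.18, adjusted p = 0.0018). GCLC and GCLM, the catalytic and modifier subunits of the enzyme that makes the glutathione precursor, were abundant at 19491 ± 5801 and 7382 ± 1348 in FF and had log2 fold changes of 0.03 and 0.24 (adjusted p = 0.91 and 0.13). GSR, which regenerates glutathione, was at 0.16 (adjusted p = 0.24). Among glutathione transferases and related enzymes GSTO1 rose by 0.72 (SE 0.16, adjusted p = 0.0042) and ETHE1, a mitochondrial sulfur dioxygenase, by 0.48 (adjusted p = 0.028). MGST1, a membrane-bound transferase and peroxidase, fell by 1.42 (SE 0.45, adjusted p = 0.032) from 28180 ± 16729 to 10665 ± 8508, with 0 of 14 RES sows above the FF median, a call kept in 22 of 27 fits without 1 library.

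TKT of the pentose phosphate pathway and MTHFD2 of mitochondrial folate metabolism, both in the list of enzymes that supply or link to NADPH, rose by 0.50 and 0.43 (adjusted p = 0.024 and 0.031), 2 of 17 genes, and the call of MTHFD2 was kept in 20 of 27 fits without 1 library. ROMO1, a mitochondrial inner membrane protein listed with sources of reactive oxygen species, rose by 0.50 (adjusted p = 0.027), 1 of 11. In the list on metallothioneins and iron, 3 of 14 rose: TFRC, the transferrin receptor, by 0.46 (adjusted p = 0.026), BLVRA, biliverdin reductase, by 0.74 (adjusted p = 0.0078), and MT1A, at under 20 normalized counts on average. In the list on ferroptosis, the death by lipid peroxidation that GPX4 prevents, which holds genes that protect from it and genes that favour it, 4 of 11 rose and 1 fell. TFRC, also in this list, brings in iron and is known to favour it. LPCAT3, which puts polyunsaturated fatty acids into phospholipids and so favours that death, rose by 0.76 (adjusted p = 0.011), and DHODH and PDSS1, of ubiquinone reduction and synthesis, rose by 0.59 and 0.55 (adjusted p = 0.020 and 0.014). NCOA4, the receptor that sends ferritin to lysosomes and so frees iron, which favours ferroptosis, fell by 0.64 (adjusted p = 0.045), a call kept in 8 of 27 fits without 1 library. Of 18 genes in the list of NRF2 targets, which holds the members PRDX1 and NQO1, edgeR called 3 higher in RES (PRDX1, TXNRD1 and TKT) and not NQO1. That is 16.7%, near the 14.1% of all genes. DESeq2 called 4 and limma voom 6, or 33.3% against 27.9% of all genes, and none was lower by any of these tools.

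Cell cycle and respiratory-chain genes are given beside the members. In RES, 16 of 18 cell cycle genes rose (median 1.03 on the log2 scale). Of 19 respiratory-chain genes 3 rose (CYCS, SDHB and NDUFB8), 15.8% against the 14.1% of all genes, and 18 had a positive log2 fold change (median 0.26). The mean log2 level of the 18 cell cycle genes ranged from 7.59 through 8.94 to 9.77 in FF and from 8.52 through 9.96 to 10.6 in RES. The mean log2 level of the 19 respiratory-chain genes ranged from 8.73 through 9.57 to 9.87 in FF and from 9.36 through 9.87 to 10.3 in RES. Their part in the values of the members was not tested.

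Each member was set against these mean levels within each diet, 36 relations in all, with 100000 permutations and adjustment over the 36. This comparison was chosen after the data were seen. With the respiratory-chain genes 6 of 9 members passed in FF and 7 of 9 in RES, the lowest r that passed being 0.72 and 0.61. Of the 11365 tested genes outside that list, 6.78% in FF and 13.1% in RES reached these values. PRDX1 followed the respiratory-chain genes closely, with r = 0.96 (rho = 0.91, adjusted p = 0.00018, n = 13, permutation test) in FF and r = 0.94 (rho = 0.88, adjusted p = 0.00018, n = 14, permutation test) in RES. Without the 2 sows farthest from the median r was 0.79 in FF and 0.91 in RES, and without FF sow 10 it was 0.89 in FF. GPX4 had r = 0.94 in FF and 0.84 in RES (adjusted p = 0.00048 and 0.0019, permutation test), or 0.77 and 0.89 without the 2 farthest sows. For SOD1 r was 0.83 in FF, where it rested on the 2 farthest sows (0.30 without them), and 0.70 in RES (0.82 without them). PRDX3 had r = 0.89 in FF and 0.71 in RES (adjusted p = 0.0039 and 0.014, permutation test), or 0.38 and 0.61 without the 2 farthest sows. PRDX2 had r = 0.88 and 0.61 (adjusted p = 0.0093 and 0.048, permutation test), which rested on the 2 farthest sows in both diets (0.21 and 0.29 without them). CAT passed in FF alone, with r = 0.72 (adjusted p = 0.048, permutation test). That r was 0.20 without FF sow 10 and 0.56 without the 2 farthest sows. In RES CAT had r = 0.54 (adjusted p = 0.095, permutation test), or 0.64 without the 2 farthest sows. SOD2 passed in RES alone, with r = 0.74 (adjusted p = 0.011, permutation test), or 0.50 without the 2 farthest sows, and had r = 0.60 in FF (adjusted p = 0.053), or -0.01 without them. Without FF sow 10 alone, r in FF was 0.87 for GPX4, 0.34 for SOD1, 0.69 for PRDX3, 0.71 for PRDX2 and 0.42 for SOD2. The differences of CAT and SOD2 between diets were not tested. For NQO1, r was 0.03 in FF and 0.82 in RES (0.56 without the 2 farthest sows), a difference that was not tested. GPX1 had r = 0.02 and -0.42 and passed in neither diet. With the cell cycle genes, no member passed in FF (the lowest unadjusted permutation p was 0.21), and in RES PRDX1 (r = 0.69, adjusted p = 0.020) and GPX4 (r = 0.63, adjusted p = 0.031) passed the permutation test, where 14.0% of the tested genes outside the cell cycle list reached the r of GPX4. In FF their r was 0.11 and 0.28, or 0.42 and 0.65 without FF sow 10, and the difference between diets was not tested. In higher and lower quality libraries taken apart, with FF sow 10 among the lower, r of PRDX1 with the respiratory-chain genes was 0.97 and 0.95 in FF and 0.99 and 0.97 in RES.

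**Figure D4:**
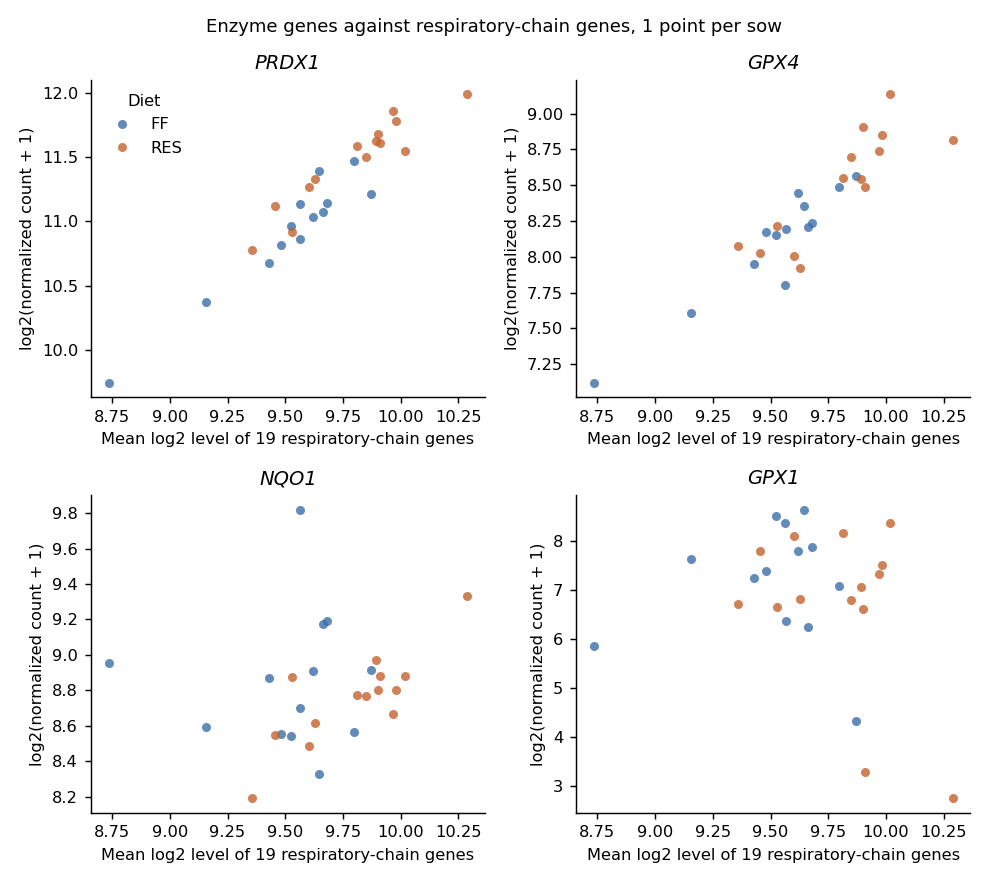
Log2(normalized count + 1) of PRDX1, GPX4, NQO1 and GPX1 against the mean log2 level of 19 respiratory-chain genes, 1 point per sow, FF in blue and RES in orange. PRDX1 and GPX4 rise along a line in both diets with FF sow 10 at the lower left, whereas GPX1 shows no such line and its 3 lowest sows lie to the right.

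The genes whose pattern was most like each member's were found by r of log2 levels over the 27 libraries after the diet means were subtracted. For PRDX1 they were the proteasome subunits PSMB1, PSMB2 and PSMB7 (r = 0.96, 0.93 and 0.91, or 0.94, 0.90 and 0.86 without FF sow 10). For GPX4 they were the respiratory-chain genes NDUFA8, NDUFB8 and ATP5MC3 (0.90, 0.89 and 0.89), and for SOD1 NDUFV2, PDHB and ATP5F1A (0.90, 0.90 and 0.90, or 0.81, 0.72 and 0.75 without FF sow 10). SOD2 was nearest to HSPA9, a mitochondrial chaperone (0.92), VAPA (0.81) and EMC3 (0.79). PRDX2 was nearest to TMEM205 (0.91), UQCR10 (0.88) and NDUFA13 (0.87), PRDX3 was near GHITM and SARAF (0.91 and 0.91), and CAT was nearest to PSTK, NDUFS4 and PPP4R4 (0.86, 0.83 and 0.80). NQO1 and GPX1 had looser neighbours, B4GALT7, URM1 and ZPR1 for NQO1 (0.72, 0.69 and 0.68) and ACVR1, ZNF35 and DENND3 for GPX1 (0.73, 0.64 and 0.62). These are descriptions over 27 libraries that share the scaling by library size, with no test.

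Co-expression among the members themselves was computed for 36 pairs in each diet with Pearson's r of normalized counts and 100000 permutations, adjusted over the 72 correlations. In FF 30 of 36 pairs were positive with a median r of 0.41, and 9 passed. In RES 31 of 36 were positive with a median of 0.43, and 8 passed. All 17 were positive. Over all pairs of tested genes the median r was near 0 in both diets, and 1.85% of pairs in FF and 3.72% in RES reached the lowest r that passed among the members, 0.73 in FF and 0.66 in RES. The highest r in FF were GPX4 with PRDX1 (0.83, rho = 0.80, adjusted p = 0.015, permutation test), PRDX1 with PRDX3 (0.83, rho = 0.78, adjusted p = 0.015, permutation test) and PRDX1 with PRDX2 (0.78, rho = 0.57, adjusted p = 0.023, permutation test). In RES they were SOD2 with PRDX1 (0.80, rho = 0.77, adjusted p = 0.015, permutation test), PRDX2 with NQO1 (0.76, rho = 0.60, adjusted p = 0.028, permutation test) and SOD1 with GPX4 (0.74, rho = 0.66, adjusted p = 0.023, permutation test). SOD1, GPX4 and PRDX1 passed with each other in both diets, at r = 0.75, 0.78 and 0.83 in FF and 0.74, 0.66 and 0.71 in RES. The other pairs that passed were SOD2 with PRDX2 (0.75) and with PRDX3 (0.73), GPX4 with PRDX2 (0.78) and PRDX2 with PRDX3 (0.77) in FF, and GPX4 with PRDX3 (0.67), PRDX1 with PRDX3 (0.69) and PRDX1 with NQO1 (0.69) in RES. The lowest r were GPX1 with NQO1 in both diets (-0.50 in FF, -0.37 in RES), CAT with NQO1 (-0.29) and SOD1 with NQO1 (-0.16) in FF, and GPX1 with PRDX2 (-0.32) and with CAT (-0.22) in RES. GPX1 took part in 8 pairs per diet, none of which passed. Over these 16 correlations 0 had an unadjusted permutation p under 0.05 with Pearson's r and 1 with Spearman's rho.

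The calls in FF rested on few libraries. Without FF sow 10 the median r in FF was 0.17, and 0 of 36 pairs passed, with 6 at an unadjusted permutation p under 0.05. The r of GPX4 with PRDX1 was then 0.72 and that of SOD1 with PRDX1 0.56. The r in RES do not involve that library, but adjusted together with those FF pairs 1 of the 36 RES pairs passed, SOD2 with PRDX1, with 15 at an unadjusted permutation p under 0.05 as before. With TMM-scaled counts 9 pairs passed in FF and 2 in RES. By Spearman's rho 0 pairs passed in either diet, with 11 in FF and 14 in RES at an unadjusted permutation p under 0.05. Without the 2 sows farthest from the median of the first-named gene, 0 passed in FF (median r 0.17, 1 at an unadjusted p under 0.05) and 1 in RES, GPX4 with PRDX1 at 0.86 (median r 0.37, 12 at an unadjusted p under 0.05). Within quality groups, with FF sow 10 in the lower one, the 17 pairs kept positive r, from 0.27 to 0.94 in the higher and from 0.40 to 0.98 in the lower quality libraries.

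None of the 36 differences of r between RES and FF passed a permutation test, with 1 at an unadjusted p under 0.05. That was GPX4 with NQO1, at r = 0.02 in FF and 0.55 in RES (p = 0.034, adjusted p = 0.73). The largest differences also involved NQO1, whose r with PRDX1 was -0.16 in FF and 0.69 in RES (adjusted p = 0.73), with PRDX2 -0.02 and 0.76 (adjusted p = 0.73) and with PRDX3 -0.12 and 0.63 (adjusted p = 0.73). FF sow 13 had the highest NQO1 in FF. RES sow 3 was the highest RES sow for NQO1, PRDX1, PRDX2 and SOD2, but not for PRDX3 or GPX4. The part of these sows in the differences was not tested.

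**Figure D5:**
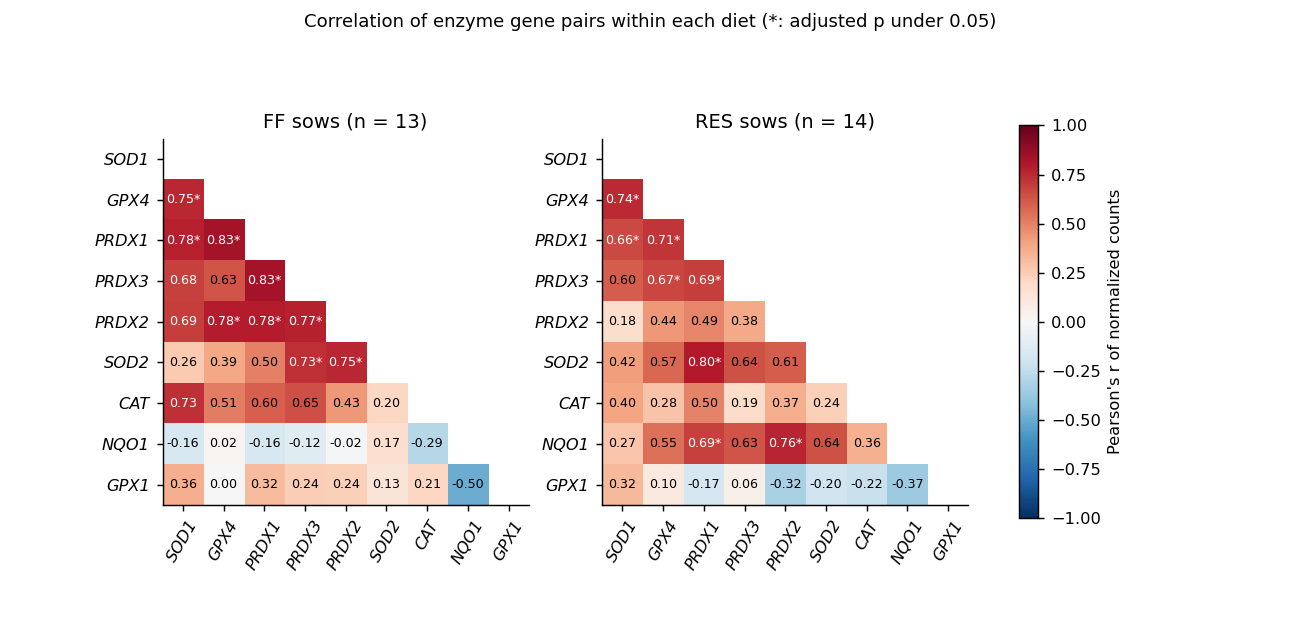
Pearson's r of normalized counts for the 36 pairs of enzyme genes within 13 FF sows (left) and 14 RES sows (right), blue for negative and red for positive values, with an asterisk where the adjusted permutation p is under 0.05. SOD1, GPX4, PRDX1 and PRDX3 form a red corner in both diets, the NQO1 row runs from -0.50 (with GPX1) to 0.17 in FF and is positive in RES apart from GPX1, and no GPX1 pair carries an asterisk.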

How the data were processed

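Deduplicated read counts per gene of 27 libraries were analysed as the authors deposited them. Per the labels and the study's methods, rRNA-depleted, strand-marked total RNA was randomly primed and sequenced, reads were aligned to Sscrofa11.1 with HISAT2 (2.2.1), unique alignments were taken with SAMtools (1.16.1), duplicates were removed with UMI-tools (1.1.4), and exon counts were made with featureCounts (1.6.2) with no strand option. Near-identical gene copies were not searched for.

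The members and all gene lists were chosen with earlier results of these data known. Of 35670 identifiers, 15623 had a symbol, and the 11384 named genes with a mean count of at least 5, small RNAs left out, were tested with edgeR (4.0.16), TMM factors and the quasi-likelihood test, called at a Benjamini-Hochberg adjusted p under 0.05. SE is the log2 fold change over the root of F, and intervals cover 95%. Normalized counts used DESeq2 (1.42.0) size factors. They were divided by RefSeq exon length for levels per kilobase. Correlations used a pseudocount of 1 where logged. All tests were two-sided. The labels name 1 sow per library, and p-values measure the spread between sows. Quality groups were split at a gap in the read quality given in the study's supplement, where each library took the entry of its own number. For FF sow 10 that entry is in doubt, and an alternative chosen after the data were seen took the entry numbered FF 9. On simulated counts for the RES against FF comparison (11384 genes), 84% of genes changed by log2 1 and 98% by log2 2 were recovered. Of the calls 6.19% were false. Changes as small as those of the members, at most 0.49, were not simulated. With TXN unmatched, 36 pairs per diet were left of the 45 planned.

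Named genes were all members, fixed partner genes whether called or not, from each list up to 4 called genes of largest change with a mean of at least 20, the 3 nearest patterns per member, and pairs that passed or had the 3 highest or lowest r. Some genes that these rules name are not reported here. Genes under 20 and the cell cycle, respiratory-chain and marker genes are named from their lists. Alternatives were DESeq2, other scalings, filters, covariates, a replicate block, limma (3.58.1) voom weights and each library left out.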

Additional observations from a re-analysis of the deposited data

How the results depend on the processing

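Over 12 alternatives, 95 of 108 member results kept their direction and their side of the threshold, and 218 of 243 did so over the 27 fits without 1 library. SOD1 and PRDX1, and no other member, were called with DESeq2, with both other scalings, both other filters, all identifiers, the quality or RIN covariate and the block. The number of members called was 0 within the lower quality group, 1 within the upper and 4 with limma voom weights (GPX4 and PRDX2, the latter lower in RES, joined), and 1 to 3 over the fits without 1 library. For the other antioxidant genes, 24 in the report, it was 0 within the lower quality group, 40 with voom weights and 17 to 31 without 1 library. CAT, near 0, was positive with no count filter (0.011), all identifiers (0.041), the replicate block (0.026), the quality covariate (0.0013) and in the lower quality group (0.18), as was PRDX3 in the latter (0.071), and CAT lay between -0.047 and 0.022 without 1 library. With the other supplement entry for FF sow 10, an alternative chosen after the data were seen, the quality and RIN covariates kept the calls of SOD1 and PRDX1, 0 members were called within either quality group, 0 and 16 of the other antioxidant genes were called in the lower and the upper group, and CAT was at 0.077 in the lower. The cause of these shifts was not tested. Within the lower quality group 1 gene of 11384 was called, with 1385 at an unadjusted p under 0.05 in 6 FF and 7 RES sows. Upper-quartile scaling moved the share of calls that were higher in RES from 58.6% to 51.1%.

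The co-expression counts, 9 in FF and 8 in RES, were 0 and 0 by Spearman's rho, 0 and 1 without FF sow 10, 0 and 1 without the 2 farthest sows, 9 and 2 with TMM-scaled counts, 12 and 11 on the log2 scale, and 13 and 11 as residuals within the quality groups. The replicate numbers did not pair the sows: same-numbered libraries had correlations from -0.22 to 0.30 over 13 pairs, 1 of them over 0.1, and no FF library correlated best with its own number. The replicate block called 1084 genes against 1610 and kept both member calls. Ranks by counts per library rather than per kilobase were 3682 for SOD1, 385 for PRDX3 and 677 for PRDX2.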
